A study of Homo sapiens with 2 samples.

Results

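Epithelial cells hold together through E-cadherin and splice many transcripts in an epithelial pattern. Cells that take on a mesenchymal state lose E-cadherin and gain N-cadherin, vimentin and a fibronectin matrix. The repressors ZEB1, ZEB2, SNAI1, SNAI2 and TWIST1 drive that change, in carcinomas as in the embryo, largely by shutting off the E-cadherin gene and other epithelial genes. The 10 genes described here are the epithelial genes CDH1 and ESRP1, the mesenchymal genes VIM, FN1 and CDH2, and those 5 repressors. They were chosen by name, as all probe sets annotated to a single one of these genes. This gave 27 probe sets for 10 of the 19775 genes measured, and no probe set naming several genes included any of the 10.

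RNA came from HT-29, a long-established cell line from a human adenocarcinoma of the colon, harvested 72 h after transfection. In the siIFITM1 sample the small interfering RNA targeted IFITM1, an interferon-induced membrane protein. In the siLuc sample it targeted firefly luciferase, which has no counterpart in these cells, and this sample was the baseline. With 1 Affymetrix array per siRNA no replicate error can be given, and all differences are descriptions of these 2 arrays without a test. Values are MAS5 signals on a linear scale and log2 ratios of siIFITM1 over siLuc. IFITM1 itself had a signal of 237 with siIFITM1 and 640 with siLuc, 37.1% of the baseline.

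The ratios are read against the median of the mean signal over the 54613 probe sets that are not controls, which was 57.4. Below that median, the log2 ratios of probe sets for the same gene differed with an SD of 1.66. Between the median and the 75th percentile (a signal of 393) that SD was 0.50, and above the 75th percentile it was 0.19. Of the 27 probe sets, 21 lay below the median. These were 21 of the 23 probe sets of the 8 mesenchymal and repressor genes and 0 of the 4 probe sets of the 2 epithelial genes.

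ZEB1 and ZEB2 are repressed in epithelial cells by the miR-200 family. Mature microRNAs were not measured, but 1 probe set read MIR200CHG, the host transcript that spans miR-200c and miR-141. Their mature sequences, with those of the other family members, are shown because they are the known epithelial brake on both ZEB genes. They come from RefSeq (GRCh38.p14), and capitals mark the seed, bases 2 to 8.
hsa-miR-200c-3p: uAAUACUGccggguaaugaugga
hsa-miR-200b-3p: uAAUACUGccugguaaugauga
hsa-miR-429: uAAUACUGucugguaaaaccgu
hsa-miR-141-3p: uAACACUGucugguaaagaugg
hsa-miR-200a-3p: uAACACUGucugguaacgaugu
The first 3 share the seed AAUACUG, and the other 2 share AACACUG. The MIR200CHG probe set had a signal of 145 with siIFITM1 and 177 with siLuc. Both of its signals were above the median, and the log2 ratio of -0.28 was smaller than the SD of 0.50 between probe sets of the same gene at that level.

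SNAI and ZEB proteins bind the E-box CACCTG, which reads CAGGTG on the other strand. RefSeq promoter windows were at hand for VIM, FN1, CDH2, ZEB1 and ZEB2, 12 windows in all, and the 250 bases before each start were searched on both strands. No window was at hand for CDH1, SNAI1 or TWIST1, so their promoters were not searched. Among the 5 genes searched, only windows of ZEB1 held these letters, in 2 of its 7 windows at 3 places. Over the 5 genes that was 2 of 12 windows, against 17.5% of all 35116 windows. The wider pattern CANNTG, which includes CACCTG, occurred 7 times in the ZEB1 windows, once each in ZEB2 and CDH2, and not in VIM or FN1. Over all windows CANNTG occurred 1.05 times per window on average and was present in 61.8%. The 3 places in ZEB1 are shown with their flanks, on the plus strand of GRCh38.p14, with the E-box in capitals.
chr10:31318348-31318377: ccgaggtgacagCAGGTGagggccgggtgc
chr10:31318966-31318995: ccccaccaCACCTGaggaaaacttttccct
chr10:31319119-31319148: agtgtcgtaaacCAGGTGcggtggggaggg
Inside their windows, they begin 57, 242 and 85 bases before the transcript start to which each window belongs. These matches describe letters only, and binding was not measured.

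CDH1 encodes E-cadherin, the adhesion molecule of adherens junctions. Its probe set 201131_s_at had a signal of 13183 with siIFITM1 and 10928 with siLuc, a log2 ratio of 0.27. Its other probe set, 201130_s_at, had 597 with siIFITM1 and 544 with siLuc, a log2 ratio of 0.13. Both were higher on the siIFITM1 array, by 1.40 and 0.69 times the SD of 0.19 between probe sets of the same gene. Among all probe sets of its array, 201131_s_at ranked at percentile 98.8 with siIFITM1 and 98.5 with siLuc.

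ESRP1 encodes an RNA-binding protein that keeps epithelial splice forms, such as those of FGFR2 and CD44. Probe set 225846_at had a signal of 5625 with siIFITM1 and 4906 with siLuc, a log2 ratio of 0.20. Probe set 219121_s_at had 2922 with siIFITM1 and 2848 with siLuc, a log2 ratio of 0.04. These ratios were 1.02 and 0.19 times the same SD, so neither stood clear of the disagreement between probe sets of a gene. All 4 probe sets of CDH1 and ESRP1 were thus bright on both arrays and slightly above the baseline with siIFITM1. Of all probe sets above the 75th percentile, 0.322% were at least 2-fold apart, and none of these 4 was.

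**Figure D1:**
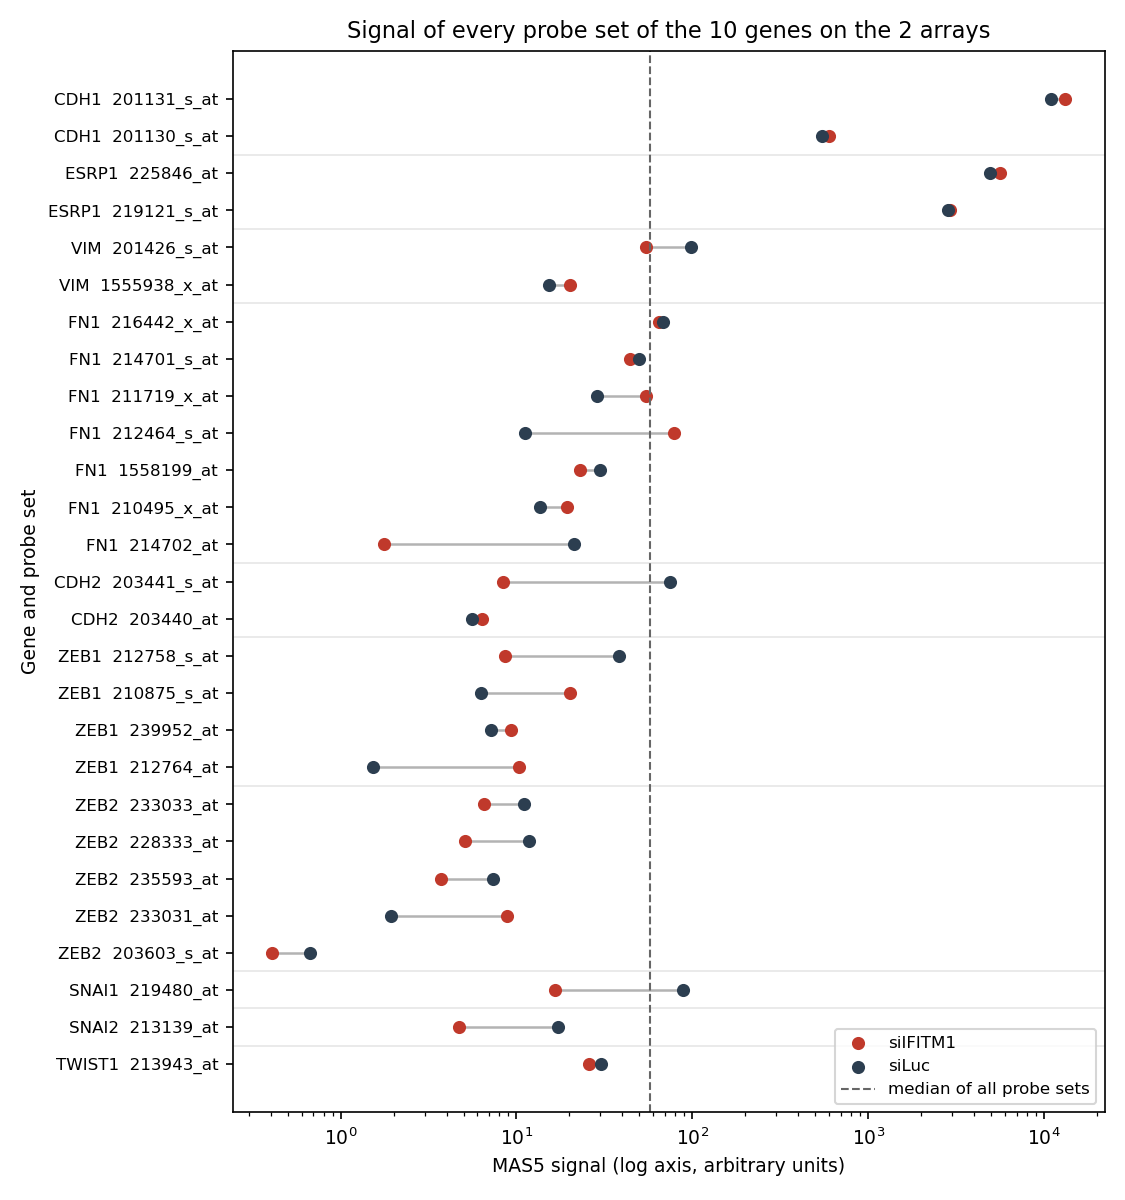
MAS5 signal (log axis, arbitrary units) of each of the 27 probe sets with siIFITM1 (red) and siLuc (dark), 1 array each, joined by a line, with the median of all probe sets (57.4) dashed. The CDH1 and ESRP1 probe sets lie far right of the median with the 2 points close together, and the others lie near it or to its left, many with the points far apart.

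VIM encodes vimentin, the intermediate filament protein of mesenchymal cells. Its brighter probe set, 201426_s_at, had a signal of 54.4 with siIFITM1 and 97.7 with siLuc, a log2 ratio of -0.84 and 1.70 times the SD at that level. The siIFITM1 signal was below the median and the siLuc signal above it. With the siIFITM1 signal raised to the median the log2 ratio was -0.77, which is 1.70-fold lower than with siLuc. Its other probe set, 1555938_x_at, had 20.1 with siIFITM1 and 15.4 with siLuc, both below the median, and the ratio of 0.39 had the opposite sign.

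FN1 encodes fibronectin, a matrix glycoprotein bound by integrins, and was read by 7 probe sets. At the brightest, 216442_x_at, the signal was 64.6 with siIFITM1 and 68.5 with siLuc, both just above the median, and the log2 ratio was -0.09. The other 6 had mean signals below the median. Of these, 211719_x_at was at 0.94 (54.7 with siIFITM1, 28.6 with siLuc), 210495_x_at at 0.51 and 1558199_at at -0.38. Probe set 212464_s_at had 79.1 with siIFITM1 and 11.1 with siLuc, a log2 ratio of 2.83. Probe set 214702_at had 1.75 with siIFITM1 and 21.2 with siLuc, a log2 ratio of -3.60. In all, 3 FN1 probe sets were higher and 4 lower on the siIFITM1 array, so the probe sets of this gene did not share a direction. Probe sets 214701_s_at and 214702_at were designed on the same accession, and 214701_s_at, at 44.0 with siIFITM1 and 49.6 with siLuc, had a log2 ratio of -0.17.

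CDH2 encodes N-cadherin, which replaces E-cadherin in the cadherin switch. Probe set 203441_s_at had a signal of 8.34 with siIFITM1 and 75.1 with siLuc, a log2 ratio of -3.17. Probe set 203440_at had 6.33 with siIFITM1 and 5.56 with siLuc, a log2 ratio of 0.19. One of these 4 signals, that of 203441_s_at with siLuc, was above the median. Raising the siIFITM1 signal to the median left a log2 ratio of -0.39 at 203441_s_at, 1.31-fold lower.

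ZEB1 and ZEB2 encode zinc finger homeobox repressors that silence CDH1 and ESRP1 and are themselves restrained by the miR-200 family. All 9 of their probe sets were below the median on both arrays. Their signals ran from 0.409 to 20.1 with siIFITM1 and from 0.669 to 38.5 with siLuc. The highest of them ranked at percentile 28.5 of all probe sets with siIFITM1 and 39.7 with siLuc. Their log2 ratios had no common sign. For ZEB1, 212758_s_at was at -2.16 (8.63 with siIFITM1, 38.5 with siLuc), while 210875_s_at was at 1.68, 239952_at at 0.38 and 212764_at at 2.76. For ZEB2, 4 probe sets were between -1.21 and -0.71, and 233031_at was at 2.18 (8.78 with siIFITM1, 1.93 with siLuc). With every signal raised to the median, all 9 ratios were 0.

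SNAI1 and SNAI2 encode the zinc finger repressors Snail and Slug, and TWIST1 encodes a basic helix-loop-helix factor. Each had 1 probe set. SNAI1 had a signal of 16.6 with siIFITM1 and 88.5 with siLuc, a log2 ratio of -2.41. The siLuc signal was above the median and the siIFITM1 signal below it, and raising the siIFITM1 signal to the median left a log2 ratio of -0.63, which is 1.54-fold lower. SNAI2 had 4.71 with siIFITM1 and 17.2 with siLuc, a log2 ratio of -1.87, with both signals below the median. TWIST1 had 26.0 with siIFITM1 and 30.1 with siLuc, a log2 ratio of -0.21, also below the median on both arrays. For SNAI1, SNAI2 and TWIST1 these ratios were 1.45, 1.12 and 0.13 times the SD of 1.66 in size, and no other probe set checked them.

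Over the 10 genes, 10 of the 27 probe sets were at least 2-fold apart, 4 higher and 6 lower with siIFITM1, against 26.1% of all probe sets. All 10 were below the median. They were 47.6% of the 21 below the median, against 48.6% of all 27306 probe sets below it (22.8% higher, 25.8% lower). At or above the median, 0 of 6 were 2-fold apart, against 3.67% of all such probe sets. At a threshold of 1.5-fold, 5 of the 21 dim probe sets were higher and 9 lower, against 31.1% and 35.4% of all dim probe sets. VIM 201426_s_at, above the median, was also past 1.5-fold and lower. The share of 2-fold differences among the dim probe sets of the 10 genes was thus close to that of dim probe sets in general. The median log2 ratio of the 23 probe sets for mesenchymal and repressor genes was -0.21, with 9 above 0 and 14 below, and that of all probe sets below the median was -0.09. For the 4 of CDH1 and ESRP1 it was 0.16, and that of all probe sets above the 75th percentile was -0.00238. By the brightest probe set of each gene, CDH1 and ESRP1 were higher and the other 8 genes lower, with FN1 at 0.01 after quantile normalization. Among all 19775 genes 53.1% were lower by the same measure.

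**Figure D2:**
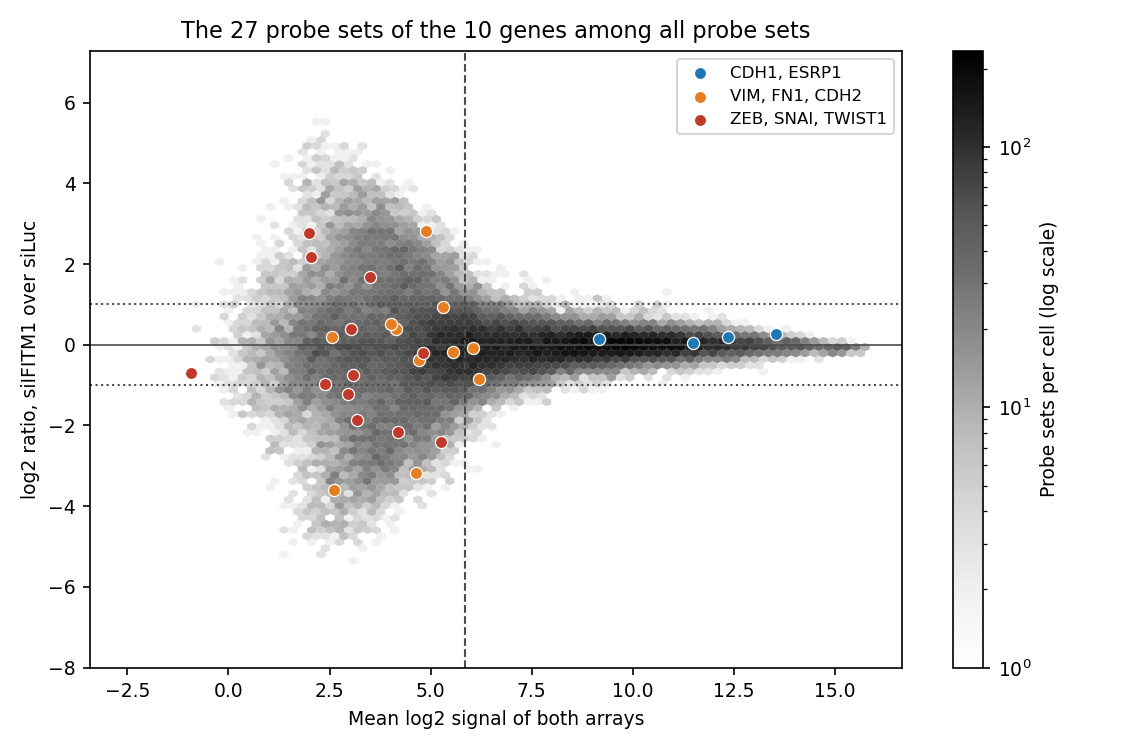
Log2 ratio of siIFITM1 over siLuc against the mean log2 signal of both arrays for all 54613 probe sets (grey, darker where denser) and the 27 probe sets of the 10 genes (coloured). The dashed line is the median signal and the dotted lines are 2-fold. The spread of all probe sets widens left of the median, where 21 of the 27 lie, and the blue CDH1 and ESRP1 points lie close to 0 in the narrow part.

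Genes that share these roles were taken from lists of related genes. Of 41 further genes of the epithelial state with a probe set of their own, all 41 reached the median signal and 39 exceeded the 75th percentile. Their log2 ratios had a median of 0.08, with 24 above 0 and 17 below, and 1 was 2-fold apart. Over all 12225 genes that reached the median signal, the median log2 ratio was -0.02, 47.4% were above 0, and 3.03% were 2-fold apart. EPCAM, an epithelial adhesion molecule, had 17180 with siIFITM1 and 17339 with siLuc (log2 ratio -0.01). PARD6B, an organiser of apical polarity, had 2292 with siIFITM1 and 1100 with siLuc (log2 ratio 1.06), and its 3 probe sets ran from 0.89 to 1.84. GRHL1, a Grainyhead transcription factor of epithelia, was at 0.61, the phospholipid synthesis gene CDS1 at 0.49 and the tight junction scaffold gene TJP1 at 0.38.

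Of 39 further mesenchymal genes, 20 reached the median signal and 7 exceeded the 75th percentile. The 20 had a median log2 ratio of -0.26, with 7 above 0 and 13 below. For 4 of the 20 the siIFITM1 signal was below the median, and for 0 of them the siLuc signal was. Among the 7 brighter ones the median was -0.01. The extracellular matrix gene TNC (tenascin) had 66.8 with siIFITM1 and 127 with siLuc (log2 ratio -0.93). ACTA2 (smooth muscle actin) had 46.4 with siIFITM1 and 87.5 with siLuc (-0.91). The collagen crosslinking gene LOXL2 had 57.3 with siIFITM1 and 107 with siLuc (-0.90). These ratios were 1.87, 1.85 and 1.81 times the SD of 0.50 at the level of their mean signals. For ACTA2 and LOXL2 the siIFITM1 signal alone was below the median, where that SD was 1.66, so this scaling can overstate their ratios. Each rested on the only probe set of its gene above the median signal. Over all probe sets, ratios ran from -1.27 to 1.83 for TNC, -0.91 to 0.72 for ACTA2 and -2.73 to 0.85 for LOXL2. The proteoglycan gene LUM (lumican) was higher, with 386 with siIFITM1 and 132 with siLuc (log2 ratio 1.54), and was the only one of the 20 at least 2-fold apart. Of the 7 brighter genes, 3 were above 0 and 4 below. The receptor kinase gene AXL was at 0.26, the cytoskeletal linker gene MSN at 0.16 and the integrin gene ITGAV at 0.08. The matrix gene TGFBI was at -0.01, the protease inhibitor gene TIMP1 at -0.11 and the calcium-binding protein gene S100A4 at -0.14. The tropomyosin gene TPM2 was the furthest from the baseline, with 1053 with siIFITM1 and 1356 with siLuc (log2 ratio -0.37, which is 1.9 times the SD of 0.19), and its 2 probe sets above the median signal had opposite signs, at -0.37 and 0.42.

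**Figure D3:**
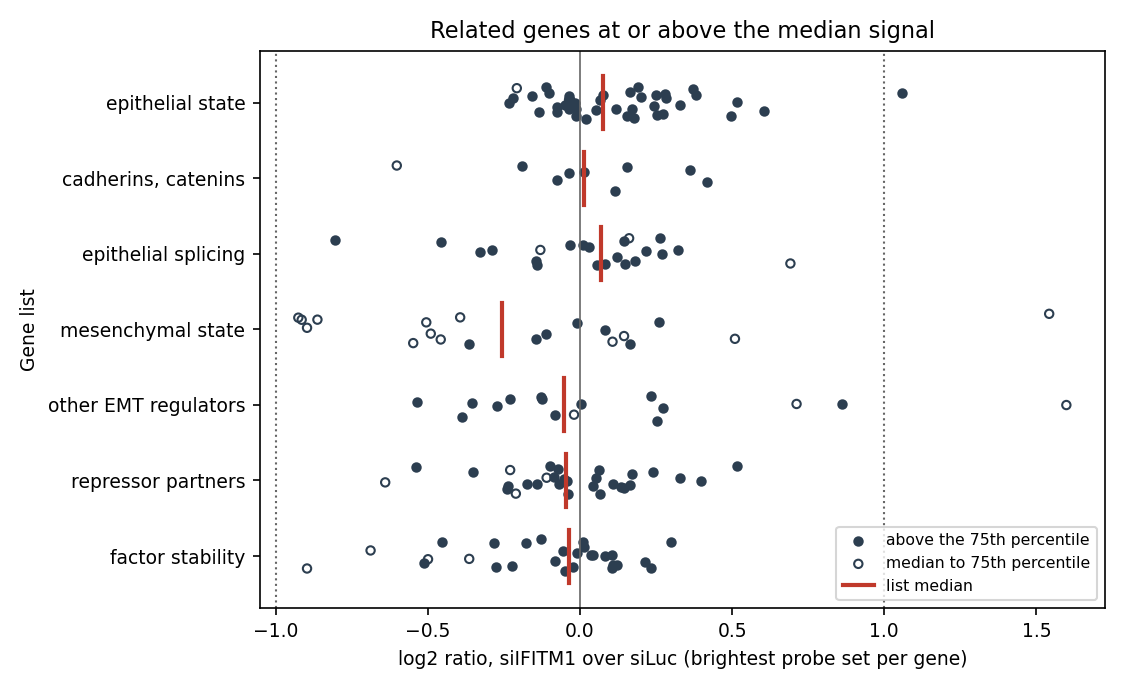
Log2 ratio of siIFITM1 over siLuc for each related gene at or above the median signal, by list, with filled points above the 75th percentile of signal and open points between the median and that percentile. The red bars are list medians, from -0.26 for mesenchymal genes to 0.08 for epithelial genes, and the open points spread more widely than the filled ones in the mesenchymal list.

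Cadherins and catenins carry the adhesion that CDH1 and CDH2 exchange. Of 16 with a probe set of their own, 9 reached the median signal, and these had a median log2 ratio of 0.01 (5 above 0, 4 below), or -0.01 over all 16. CDH3 (P-cadherin) had 556 with siIFITM1 and 570 with siLuc (log2 ratio -0.04). CTNNB1 (beta-catenin) was at 0.15 at its brightest probe set, and its 3 probe sets ran from -0.08 to 0.90. JUP (plakoglobin) was at 0.36, the vinculin gene VCL at -0.19 and CTNNA1 (alpha-catenin) at -0.07. CTNNBIP1, an inhibitor of beta-catenin, was at -0.60.

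The list around ESRP1 held splicing factors and genes with epithelial splice forms. Of 24 measured, 22 reached the median signal, with a median log2 ratio of 0.07 (14 above 0, 8 below, 0 at least 2-fold apart) that was -0.06 without probe sets that share probes between transcripts. FGFR2, a growth factor receptor whose epithelial form depends on ESRP1, had 483 with siIFITM1 and 843 with siLuc (log2 ratio -0.80). Its 4 probe sets above the median signal ran from -0.80 to -0.29, and 7 dimmer ones from -4.11 to 2.55. ARFGAP1 was at -0.29, ARHGEF11 at 0.16 and CELF2 at -0.13. Splice forms themselves were not read apart. ESRP2, the paralog of ESRP1, had no probe set naming it alone and is not analysed here.

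Of 31 other regulators of the transition, 16 reached the median signal, with a median log2 ratio of -0.05 (7 above 0, 9 below). The median was -0.23 over all 31 (10 above 0), and -0.13 both above the 75th percentile and without shared probes. SNAI3, a relative of SNAI1, had 18.0 with siIFITM1 and 51.2 with siLuc, and TWIST2 had 25.8 with siIFITM1 and 41.7 with siLuc at its brighter probe set, all below the median. The helix-loop-helix inhibitors ID1 and ID2 were at -0.39 and -0.27, SOX4 at -0.35 at its brightest probe set, and HAND1 at 0.71 with a siLuc signal below the median. TBX3, a T-box factor, had 462 with siIFITM1 and 153 with siLuc (log2 ratio 1.60). Of the 16 that reached the median signal, it was the only one at least 2-fold apart. Its 2 probe sets above the median signal had opposite signs, at 1.60 and -0.25.

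Repressor partners are the corepressors and chromatin enzymes through which SNAI and ZEB proteins act. Of 31 measured, 30 reached the median signal, with a median log2 ratio of -0.05 (13 above 0, 17 below, 0 at least 2-fold apart), and 0.00 among those above the 75th percentile. CTBP1, a corepressor of ZEB proteins, was at -0.14 at its brightest probe set. Its 4 probe sets, all above the median signal, ran from -0.30 to 1.49. The histone deacetylase gene HDAC1 had 9790 with siIFITM1 and 14228 with siLuc (-0.54), and the histone methyltransferase gene EZH2 had 4913 with siIFITM1 and 3433 with siLuc (0.52). KAT2B was at -0.64 and RCOR1 at 0.40. Among 30 genes that stabilise or degrade the repressors, 28 reached the median signal, with a median of -0.04 (12 above 0, 16 below, 0 at least 2-fold apart), or 0.04 without shared probes. Besides LOXL2, they included the ubiquitin protease gene USP27X at -0.69, the F-box gene SKP2 at -0.51 and LOXL3 at -0.36. The 3 probe sets of SKP2 ran from -0.51 to -0.18.

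Of 12 markers of colorectal epithelium, 9 exceeded the 75th percentile on the mean of both arrays, among them KRT20, VIL1 and CDH17, while CDX2, CDX1 and GPA33 were below the median. Signals summed over the 12 were 153199 with siIFITM1 and 152809 with siLuc. Of 12 fibroblast markers 3 reached the median (LUM, DCN and COL1A1), and the sums were 860 with siIFITM1 and 856 with siLuc, each marker lying between 3.37 and 386 with siIFITM1 and between 6.02 and 323 with siLuc. Those similar sums rested on LUM, described above. Of the 12, 9 were lower with siIFITM1, against 53.1% of all genes, and the median log2 ratio was -0.36. Of 6 smooth muscle markers 5 reached it, all but CNN1, with sums of 465 with siIFITM1 and 626 with siLuc. Of 8 endothelial markers 3 reached it (PECAM1, CLDN5 and ESAM), with sums of 680 with siIFITM1 and 718 with siLuc. Of 7 leukocyte markers 3 reached it (LYZ, CD14 and CD79A), with sums of 21103 with siIFITM1 and 24664 with siLuc, nearly all from LYZ, at 20614 with siIFITM1 and 23964 with siLuc. Over these 3 lists the markers lower with siIFITM1 were 4 of 6, 6 of 8 and 6 of 7, against 53.1% of all genes. All fibroblast markers but PDGFRA, and the smooth muscle markers ACTA2, TAGLN and CNN1, also belong to the mesenchymal list above. Their values are the same ones, not a separate observation. The cell surface markers PDGFRB, CDH5, PTPRC, KDR, TEK, CD3D and CD163 were below the median on both arrays. Some other surface markers were not, with PECAM1, ESAM and CD14 above it on both arrays, and THY1, FAP and PDGFRA above it with siLuc only. All RNA came from the HT-29 cell line, so the lists are read as marker transcripts in that line, not as other cell types. The source of the dim mesenchymal signals was not tested. In bulk RNA, fewer cells with a transcript and less RNA per cell cannot be told apart.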

How the data were processed

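Total RNA of 2 HT-29 samples was amplified to biotin-labelled cRNA and read on 1 single-colour array per siRNA, per the labels' protocols. The deposited values are linear intensities. According to the submitters' processing notes they came from MAS5, for which no version was found. Both arrays had a mean of 500.1 once the top and bottom 2% of probe sets were removed, so they share a scale. Depth has no counterpart here, and the number of arrays limits the precision. Detection calls were not used here.

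Of 54613 probe sets that are not controls, 41091 name 1 gene, 1801 several and 11721 none in the platform table. Symbols were updated by Entrez identifier in a RefSeq table (GRCh38.p14), which held 99.9% of them. No test was possible, so ratios are described by size. Genes in lists are given by the probe set with the highest mean log2 signal. Named were all 10 genes, IFITM1, CDH3, ESRP2, SNAI3, TWIST2, CTNNB1, CTBP1, EPCAM, and per list up to 4 genes with the largest absolute ratio and one sign over probe sets above the median signal. TBX3, the 7 brighter mesenchymal genes, MIR200CHG and the miR-200 sequences were chosen after values were seen. The 10 genes and the lists were chosen with earlier results of these data known. Alternatives were median centring, quantile normalization, loess (span 0.3), a pseudocount of 32, signals raised to the median, other folds and filters, the mean over probe sets, and omission of probe sets with shared probes (IDs ending in _x_at or _s_at, 14 of the 27). The calculation was tested on simulated data. Software was Python 3.11.15, matplotlib 3.10.9, statsmodels 0.14.6, scipy 1.17.1, pandas 2.3.3 and numpy 2.4.6.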

Additional observations from a re-analysis of the deposited data

How the results depend on the processing

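CDH1 and ESRP1 kept ratios above 0 under all 5 alternatives of scaling or background, from 0.13 to 0.30 for CDH1 and 0.03 to 0.23 for ESRP1. A pseudocount cannot change a sign, and raising signals to the median leaves signals this bright unchanged. The sign could thus have changed only under median centring, quantile normalization and loess. The 2-fold counts of the other genes rested on dim signals. The 4 higher and 6 lower probe sets became 1 and 2 with a pseudocount of 32, and 0 and 0 with signals raised to the median or with probe sets at or above the median only. At 1.5-fold 5 were higher and 10 lower, to be read against the shares of all dim probe sets given above. The number of genes that were lower, 8 of all 10, was 4 with signals raised to the median (CDH1 and ESRP1 higher, 4 at 0). It was 5 of the 8 genes measured without shared probes, with ESRP1, CDH2 and ZEB1 higher. By the mean over probe sets it was 6 of all 10, with CDH1, ESRP1, FN1 and ZEB1 higher. It was 2 of the 4 genes at or above the median (VIM and FN1, with CDH1 and ESRP1 higher), and 0 of the 2 at or above the 75th percentile, which are CDH1 and ESRP1 themselves. FN1 216442_x_at changed sign under quantile normalization, to 0.01. The epithelial list median was 0.12 above the 75th percentile and 0.16 without shared probes. The mesenchymal list median was -0.0102 and -0.11 in the same settings. That of the other regulators was -0.23 without a floor and -0.13 in both other settings. For these counts and medians the cause was not tested beyond the filter or floor that each alternative sets. IFITM1 depletion moved by less than the SD between probe sets of one gene under each scaling. No paired analysis was possible because each siRNA had 1 array.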
